A study of Homo sapiens with 8 samples.

Results

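The 46 genes described here encode the enzymes that activate, shuttle, dehydrogenate, hydrate and hydrolyse fatty acyl-CoA. They were chosen by name alone, as the genes whose symbols begin with those of the carnitine palmitoyltransferases (CPT1 and CPT2), the acyl-CoA synthetases (ACSL, ACSM, ACSF and ACSBG), the acyl-CoA dehydrogenases (ACAD), the acyl-CoA oxidases (ACOX), the enoyl-CoA hydratases and isomerases (ECHS1, ECHDC and ECI), the hydroxyacyl-CoA dehydrogenases with the trifunctional protein (HADH) and the acyl-CoA thioesterases (ACOT). Of the 18132 genes with a probe set of their own on the array, 46 met that rule, each at the probe set of highest mean. The study compared DU145 cells kept for 50 days in 1 µM Aldrin, renewed after every passage with DMSO at a final 0.01% (Aldrin-exposed, 4 arrays), with untreated DU145 cells (Non-exposed, 4 arrays). Whether the Non-exposed cells received DMSO is not given in the labels. DU145 is an established human prostate cancer line, grown here in RPMI medium with serum, and Aldrin is an organochlorine insecticide. All values are log2 intensities, so that a difference of 1 is a doubling. The labels do not say whether the replicates of a group are independent cultures, and the p-values therefore reflect array-to-array spread alone, part of which may be technical.

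A fatty acid enters metabolism when an acyl-CoA synthetase joins it to coenzyme A. Long chains are then passed to carnitine by CPT1 at the outer mitochondrial membrane and back to coenzyme A by CPT2 at the inner membrane, after which a cycle of dehydrogenation, hydration, second dehydrogenation and thiolysis shortens the chain. Peroxisomes run a parallel cycle that opens with an acyl-CoA oxidase, and thioesterases reverse the activation by releasing the free fatty acid. Prostate tumours are known for using fatty acid oxidation, and the study asked how chronic Aldrin alters the metabolism of these cells, carnitine-dependent transport included.

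None of the 46 transcripts passed the test. After Benjamini-Hochberg adjustment over all 49293 probe sets tested with limma, the adjusted p was 1.00 for each of the 46. At the same threshold of 0.05, 0 of 18132 genes (0.0%) and 1 of 49293 probe sets (0.00203%) were called. Before adjustment, 0 of the 46 lay under a limma p of 0.05 in either direction, against 2.76% of all genes, 1.17% with the higher and 1.59% with the lower Aldrin-exposed mean. Under an unadjusted limma p of 0.1 there were 4, HADH, ACSBG2, ACAD9 and CPT2, where 6.01% of all genes were. The Aldrin-exposed and Non-exposed arrays overlapped in all 46, so that 0 were without overlap, against 1.75% of all genes.

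The differences were small and ran both ways. The Aldrin-exposed mean was the higher in 22 of the 46 (47.8%, against 45.8% of all genes) and the lower in 24. Their median log2 fold change, Aldrin-exposed over Non-exposed, was -0.01, as it was over all genes, and the median size regardless of sign was 0.07 in both sets. The values spanned -0.26 (ACSBG2) to 0.31 (ACSL4). In 34 of the 46 (73.9%) the difference was smaller than the SD between arrays of a group, against 84.3% of all genes. The 95% confidence interval lay inside a 1.5-fold change either way in 44 of the 46, the exceptions being ACSL4 and ACADS, against 90.0% of all genes. It lay inside a 1.2-fold change in 13 and inside a 2-fold change in all 46. A small change of any single enzyme was therefore not excluded, and p-values above the threshold do not show that the groups were alike.

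**Figure D1:**
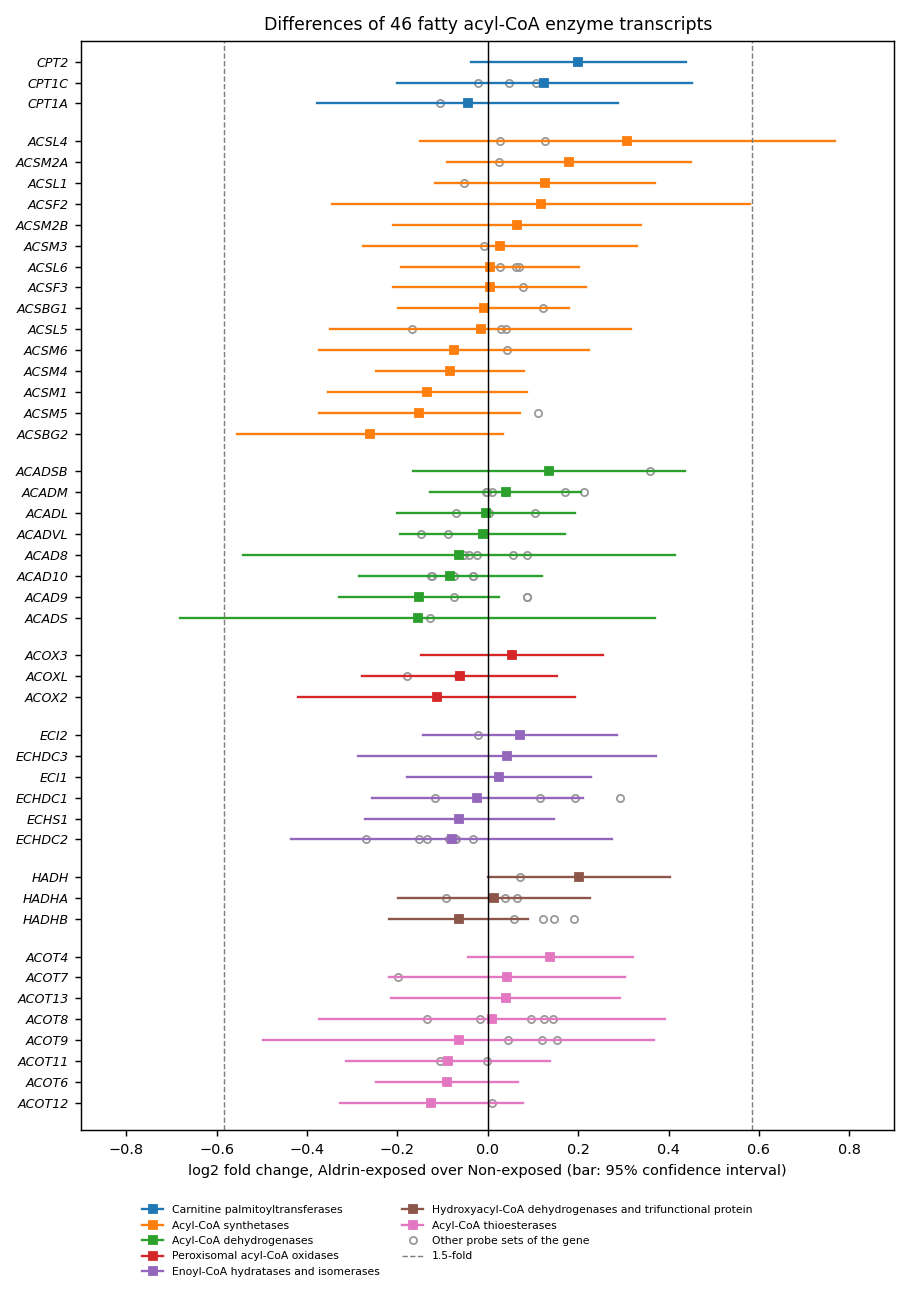
The log2 fold change (Aldrin-exposed over Non-exposed, horizontal axis) of the 46 genes, grouped by enzyme class, with squares for the chosen probe set, bars for its 95% confidence interval, open circles for the other probe sets of the gene and dashed lines at 1.5-fold. Every bar crosses 0, and the squares run between -0.26 and 0.31.

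Promoter sequences were taken from RefSeq (GRCh38.p14), 250 bases before to 50 bases after the annotated start, and 42 of the 46 genes matched. Those of HADH, which had the smallest p of the 46, of CPT2, the largest positive difference among the carnitine enzymes, and of ACSL4, the largest difference of all, are shown because the account of single genes turns on them. Capitals mark the GC box, GGGCGG or its reverse complement CCGCCC, and each run is written 5′ to 3′ on the strand of the gene.
HADH promoter, chr4:107989639-107989938, plus strand: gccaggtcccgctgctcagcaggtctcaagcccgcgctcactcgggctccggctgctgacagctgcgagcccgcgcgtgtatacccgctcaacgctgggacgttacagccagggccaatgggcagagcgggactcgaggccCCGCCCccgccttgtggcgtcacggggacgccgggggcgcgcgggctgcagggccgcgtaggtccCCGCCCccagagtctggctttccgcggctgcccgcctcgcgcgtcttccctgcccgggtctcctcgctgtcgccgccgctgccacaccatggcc
CPT2 promoter, chr1:53196574-53196873, plus strand: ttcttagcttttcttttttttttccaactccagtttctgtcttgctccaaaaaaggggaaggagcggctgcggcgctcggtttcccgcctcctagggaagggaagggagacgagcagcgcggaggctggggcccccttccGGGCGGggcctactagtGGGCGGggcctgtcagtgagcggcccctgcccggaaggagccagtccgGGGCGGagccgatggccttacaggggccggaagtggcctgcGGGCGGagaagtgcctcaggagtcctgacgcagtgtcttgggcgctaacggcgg
ACSL4 promoter, chrX:109733208-109733507, minus strand: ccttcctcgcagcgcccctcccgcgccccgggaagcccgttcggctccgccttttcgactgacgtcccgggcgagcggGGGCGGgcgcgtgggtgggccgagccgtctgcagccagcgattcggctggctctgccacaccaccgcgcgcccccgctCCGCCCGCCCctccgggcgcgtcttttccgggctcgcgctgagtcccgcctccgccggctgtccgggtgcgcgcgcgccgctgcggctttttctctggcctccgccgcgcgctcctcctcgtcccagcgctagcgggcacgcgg

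The GC box occurred 2 times in the HADH window, 4 times in that of CPT2 and 3 times, with an overlapping pair, in that of ACSL4. Read on both strands, it was held by 26 of the 42 promoters (61.9%) and by 44.95% of all 35116 RefSeq promoters of that length. The 42 were taken at 1 promoter per gene, whereas the 35116 were all entries, not limited to genes on the array. All shares and medians here compare these unlike sets. The median GC content was 66.3% in the 42 and 58.7% in all promoters. Peroxisome proliferator-activated receptors (PPARs), nuclear receptors that bind fatty acids, recognise a direct repeat of AGGTCA half-sites with 1 base between them. The half-site AGGTCA itself was found in 6 of the 42 (14.3%, against 13.8% of all), namely ACAD10, ACOT7, ACSL5, ACSL6, ACSM1 and ACSM6, and in none of the 3 windows printed. The whole repeat, AGGTCANAGGTCA, was in 0 of the 42 and in 0.0228% of all promoters. TCAAGGTCA, the extended half-site of the oestrogen-related receptors, which contains AGGTCA, was in 0 of the 42 and in 0.353% of all. The CCAAT box, CCAAT, was in 10 of the 42 (23.8%, against 34.6% of all), HADH among them. These matches describe the letters of a 300-base window and say nothing of binding.

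The carnitine palmitoyltransferases had no common direction. CPT2, which rebuilds acyl-CoA inside the mitochondrion, had log2 intensities of 9.45, 9.37, 9.72 and 9.75 in the Aldrin-exposed arrays and of 9.25, 9.38, 9.40 and 9.46 in the Non-exposed arrays. Aldrin-exposed 3 and 4 stood above every Non-exposed array, whereas Aldrin-exposed 1 and 2 lay among them. The means were 9.57 ± 0.19 in the Aldrin-exposed and 9.37 ± 0.09 in the Non-exposed arrays (SD, n = 4 each), a log2 fold change of 0.20 (SE 0.11) or 1.15-fold. The limma p before adjustment was 0.0899, and an exact two-sided permutation test over the 8 arrays, in which 0.0286 is the smallest p that 4 against 4 allows, gave 0.20.

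CPT1A, the form of the outer-membrane transferase found in liver and many other tissues, read 11.25, 11.62, 11.15 and 11.13 in Aldrin-exposed and 11.61, 11.23, 11.43 and 11.05 in Non-exposed arrays. A high array stood in each group, Aldrin-exposed 2 and Non-exposed 1, and the groups covered nearly the same range. Its log2 fold change was -0.04 (SE 0.15, limma p = 0.768 before adjustment, exact permutation p = 0.83), and its other probe set gave -0.11. CPT1C, a brain form that resides in the endoplasmic reticulum, read 7.20, 6.87, 7.26 and 7.34 in Aldrin-exposed and 6.74, 6.94, 7.26 and 7.24 in Non-exposed arrays. The groups overlapped over most of their range, with Non-exposed 1 the lowest of all 8. The log2 fold change of CPT1C was 0.13 (SE 0.15, limma p = 0.411 before adjustment, exact permutation p = 0.457), and its 4 probe sets ran from -0.02 to 0.13. It was 0.02 without Non-exposed 1 and 0.23 without Aldrin-exposed 2. CPT1B, the muscle form, was measured only by 2 probe sets shared with the CHKB-CPT1B readthrough transcript and was not counted among the 46. Those shared probe sets gave log2 fold changes of -0.12 and -0.10 and overlapped between the groups.

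The 15 acyl-CoA synthetases comprised 4 of the long-chain ACSL family, 7 of the medium-chain ACSM family, 2 ACSF genes and 2 of the bubblegum family. Their log2 fold changes ran from -0.26 to 0.31 with a median of 0.00, 8 of the 15 having the higher Aldrin-exposed mean. ACSBG2, a bubblegum-family synthetase described in testis and brain, read 6.96, 7.05, 6.99 and 6.48 in Aldrin-exposed and 7.08, 7.28, 7.04 and 7.11 in Non-exposed arrays. Aldrin-exposed 4 stood apart below all the others, and only Aldrin-exposed 2 reached into the Non-exposed range. The means were 6.87 ± 0.26 in the Aldrin-exposed and 7.13 ± 0.11 in the Non-exposed arrays (SD, n = 4 each). The log2 fold change of -0.26 (SE 0.13) had a limma p of 0.0770 before adjustment and an exact permutation p of 0.0571. Without Aldrin-exposed 4 it was -0.13.

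ACSM5, a mitochondrial medium-chain synthetase, read 6.90, 6.69, 6.78 and 6.91 in Aldrin-exposed and 6.97, 6.79, 7.18 and 6.95 in Non-exposed arrays. Non-exposed 2 fell among the Aldrin-exposed arrays and Non-exposed 1, 3 and 4 above them. The log2 fold change was -0.15 at this probe set (SE 0.10, limma p = 0.160 before adjustment, exact permutation p = 0.143) and 0.11 at the other, and it was -0.08 without Non-exposed 3. ACSL4, a synthetase that prefers arachidonic acid, is named because its difference was the largest of the 46, a choice made after its values were seen. It read 9.54, 9.39, 10.08 and 9.46 in Aldrin-exposed and 8.93, 9.45, 9.10 and 9.74 in Non-exposed arrays. Aldrin-exposed 3 was the highest and Non-exposed 4 the next, with Non-exposed 1 and 3 the lowest. Its log2 fold change was 0.31 (SE 0.20, 95% confidence interval -0.15 to 0.77, limma p = 0.163 before adjustment, exact permutation p = 0.229), and the other 2 probe sets gave 0.03 and 0.13.

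Across the other 12 synthetases the log2 fold change ran from -0.13 (ACSM1) to 0.18 (ACSM2A). ACSL1, the main long-chain synthetase of liver and fat, was at 0.13, ACSL5 at -0.02 and ACSL6 at 0.01, and ACSF2 was at 0.12. ACSF3, the mitochondrial malonyl-CoA synthetase, was at 0.00 with values of 10.23 to 10.48 in Aldrin-exposed and 10.24 to 10.56 in Non-exposed arrays. ACSM4, ACSM2B and ACSL6 lay under 5.5 in all 8 arrays, close to the array's lowest signals. ACSM2A and ACSM2B are near-identical neighbours and share 5 further probe sets that were not counted, so their own values remain uncertain.

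Among the 8 acyl-CoA dehydrogenases, 2 had the higher Aldrin-exposed mean and 6 the lower, with a median log2 fold change of -0.04. ACAD9, an acyl-CoA dehydrogenase that also assembles respiratory complex I, read 10.24, 10.25, 10.05 and 10.14 in Aldrin-exposed and 10.37, 10.36, 10.34 and 10.21 in Non-exposed arrays. Non-exposed 1, 2 and 3 stood above all Aldrin-exposed arrays and Non-exposed 4 fell among them. The means were 10.17 ± 0.09 in the Aldrin-exposed and 10.32 ± 0.07 in the Non-exposed arrays (SD, n = 4 each), a log2 fold change of -0.15 (SE 0.08). The limma p before adjustment was 0.0849 and the exact permutation p 0.0857, and the 4 probe sets of the gene ran from -0.15 to 0.09.

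ACADSB, which oxidises short branched chains in isoleucine breakdown, read 8.06, 8.60, 8.08 and 7.95 in Aldrin-exposed and 8.09, 7.98, 8.001 and 8.08 in Non-exposed arrays. Its log2 fold change of 0.14 (SE 0.13, limma p = 0.336 before adjustment, exact permutation p = 0.60) was set by Aldrin-exposed 2, which stood above all the others, and without that array it was -0.01. The second probe set of ACADSB read 8.12, 8.44, 8.40 and 7.86 in Aldrin-exposed and 7.65, 7.99, 7.77 and 7.97 in Non-exposed arrays. There Aldrin-exposed 1, 2 and 3 stood above every Non-exposed array and Aldrin-exposed 4 among them, a log2 fold change of 0.36 with a limma p of 0.0307 before adjustment. ACADVL, ACADM and ACADL, the very-long-, medium- and long-chain enzymes, had log2 fold changes of -0.01, 0.04 and 0.00. ACADVL lay between 13.20 and 13.41 in Aldrin-exposed and between 13.20 and 13.39 in Non-exposed arrays, whereas ACADL lay under 5.5 in all 8. ACAD10 was at -0.08, ACAD8, the isobutyryl-CoA dehydrogenase of valine breakdown, at -0.06, and ACADS, the short-chain enzyme, at -0.16 with the interval -0.68 to 0.37.

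The 3 peroxisomal oxidases differed by less than their spread. ACOX2, which acts on branched chains and bile acid precursors, read 7.22, 6.94, 7.38 and 7.48 in Aldrin-exposed and 7.13, 7.54, 7.31 and 7.48 in Non-exposed arrays. The arrays interleaved, with Aldrin-exposed 2 the lowest, and the log2 fold change was -0.11 (SE 0.14, limma p = 0.428 before adjustment, exact permutation p = 0.486). Without Aldrin-exposed 2 it was -0.01. ACOXL, an oxidase-like gene, read 7.14, 6.84, 7.09 and 7.12 in Aldrin-exposed and 7.17, 6.996, 7.24 and 7.03 in Non-exposed arrays. Aldrin-exposed 2 was again the lowest, and the log2 fold change of -0.06 (SE 0.10, limma p = 0.530 before adjustment, exact permutation p = 0.543) was 0.01 without it. ACOX3, the oxidase of pristanic acid, was at 0.05.

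The 6 genes placed by symbol alone among the enoyl-CoA hydratases and isomerases lay between -0.08 and 0.07. ECI2, an isomerase that lets unsaturated chains enter the cycle, read 11.23, 11.05, 11.36 and 11.12 in Aldrin-exposed and 11.03, 11.22, 11.01 and 11.21 in Non-exposed arrays. Those values interleaved, and the log2 fold change was 0.07 (SE 0.10, limma p = 0.476 before adjustment, exact permutation p = 0.429), or 0.01 without Aldrin-exposed 3. ECHS1, the short-chain hydratase of mitochondria, read 12.85, 12.62, 12.64 and 12.70 in Aldrin-exposed and 12.85, 12.75, 12.89 and 12.58 in Non-exposed arrays. Non-exposed 4 was the lowest and Non-exposed 3 the highest of the 8, and the log2 fold change was -0.06 (SE 0.09, limma p = 0.512 before adjustment, exact permutation p = 0.486), with -0.12 without Non-exposed 4 and -0.02 without Non-exposed 3. ECI1 stood at 0.03, ECHDC3 at 0.04, ECHDC1 at -0.02 and ECHDC2 at -0.08. All 8 probe sets of ECHDC2 had the lower Aldrin-exposed mean, from -0.27 to -0.03. At the first of these, chosen after its values were seen, the arrays read 6.95, 7.25, 6.89 and 7.10 in Aldrin-exposed and 7.22, 7.15, 7.54 and 7.36 in Non-exposed, with a limma p of 0.0425 before adjustment.

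Of the 46, HADH came closest to the unadjusted threshold. HADH, the short- and medium-chain hydroxyacyl-CoA dehydrogenase of the mitochondrial matrix, read 9.72, 9.98, 9.74 and 9.67 in Aldrin-exposed and 9.68, 9.53, 9.61 and 9.50 in Non-exposed arrays. Only the lowest Aldrin-exposed array, 4, and the highest Non-exposed array, 1, crossed, and only narrowly. The means were 9.78 ± 0.14 in the Aldrin-exposed and 9.58 ± 0.08 in the Non-exposed arrays (SD, n = 4 each), a log2 fold change of 0.20 (SE 0.09) or 1.15-fold. The limma p before adjustment was 0.0504, and the exact permutation p was 0.0571. Leaving out each array in turn gave 0.13 (without Aldrin-exposed 2) to 0.24 (without Aldrin-exposed 4).

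The other HADH probe set read 9.55, 9.56, 9.78 and 9.84 in Aldrin-exposed and 9.60, 9.60, 9.55 and 9.71 in Non-exposed arrays. Here Aldrin-exposed 3 and 4 were the highest, not 2, and the log2 fold change was 0.07. With both probe sets averaged the groups no longer overlapped, as in 2.25% of all genes treated likewise. HADHB, the subunit of the trifunctional protein with thiolase activity, read 12.61, 12.52, 12.56 and 12.46 in Aldrin-exposed and 12.59, 12.57, 12.65 and 12.59 in Non-exposed arrays. Aldrin-exposed 2, 3 and 4 lay just below every Non-exposed array and Aldrin-exposed 1 among them. The log2 fold change was -0.06 (SE 0.07, limma p = 0.373 before adjustment, exact permutation p = 0.171) and -0.04 without Aldrin-exposed 4, whereas the gene's 4 other probe sets gave 0.06 to 0.19. HADHA, the partner subunit, was at 0.01.

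The 8 thioesterases split evenly, 4 with the higher and 4 with the lower Aldrin-exposed mean, at a median log2 fold change of -0.03. ACOT4, a peroxisomal thioesterase of succinyl-CoA, read 8.73, 8.90, 8.96 and 8.75 in Aldrin-exposed and 8.67, 8.73, 8.63 and 8.76 in Non-exposed arrays. Aldrin-exposed 2 and 3 stood above all the Non-exposed arrays and the rest interleaved. The log2 fold change was 0.14 (SE 0.08) with a limma p of 0.121 before adjustment and an exact permutation p of 0.143.

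ACOT12, a cytosolic enzyme that splits acetyl-CoA, read 4.99, 4.77, 4.83 and 5.09 in Aldrin-exposed and 5.13, 5.03, 5.03 and 4.98 in Non-exposed arrays. These are low signals, with Aldrin-exposed 2 and 3 under all the others, and the log2 fold change of -0.13 (SE 0.09, limma p = 0.197 before adjustment, exact permutation p = 0.229) was 0.01 at the other probe set and -0.07 without Aldrin-exposed 2. ACOT6, likewise low, was at -0.09. ACOT7, which is abundant in brain, ACOT8 of the peroxisome, ACOT9 of mitochondria and ACOT13 lay between -0.06 and 0.04, and ACOT11 was at -0.09. ACOT1 and ACOT2, whose sequences are near-identical, shared a probe set that was not counted and gave -0.01.

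**Figure D2:**
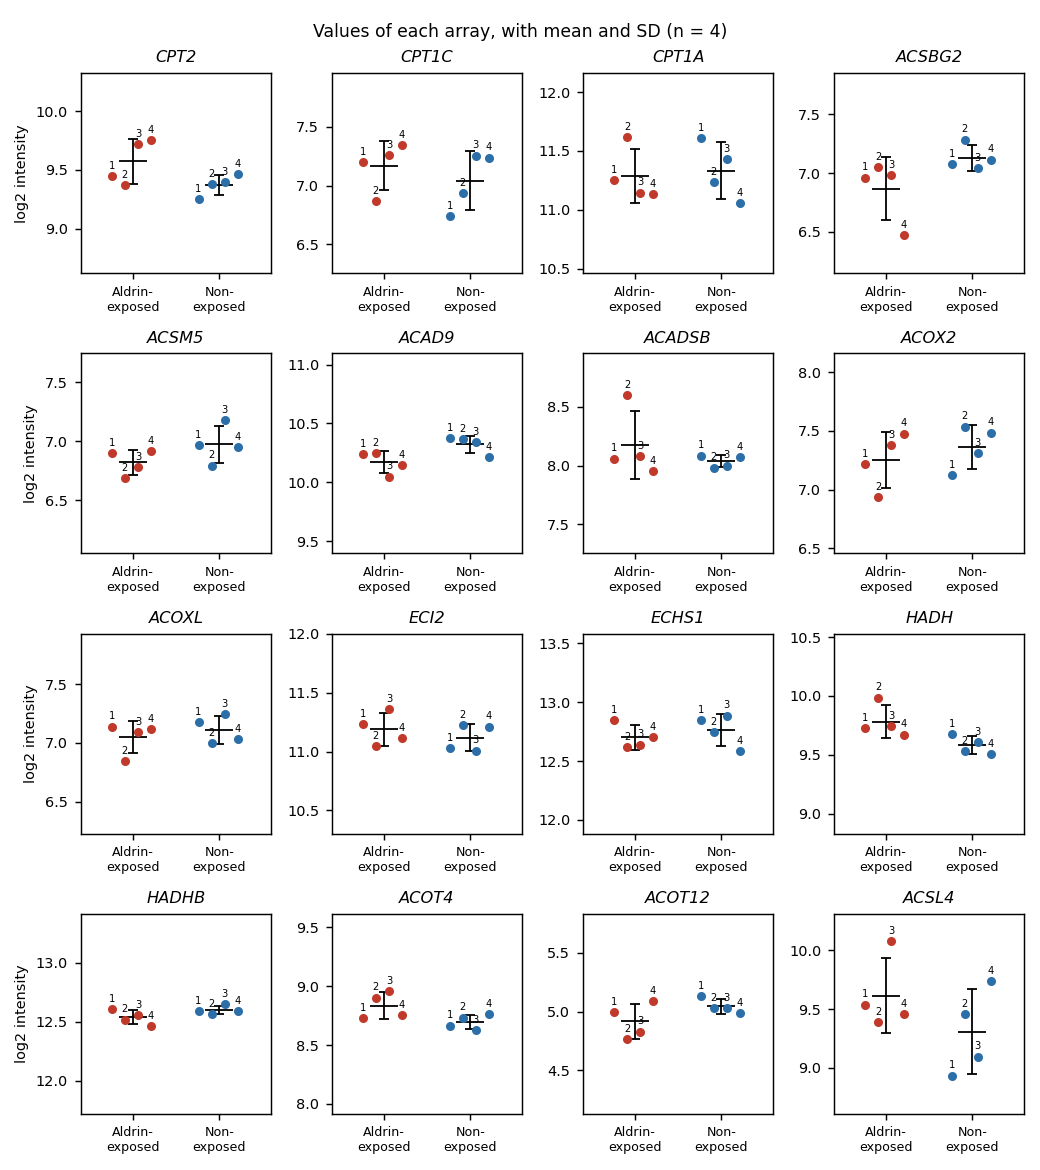
The log2 intensity of each array (numbered points, red for Aldrin-exposed and blue for Non-exposed) with the mean and SD of each group (n = 4, black) for the 15 genes named by rule and for ACSL4, on vertical axes of equal length. The groups overlap in all 16 panels, most narrowly for HADH.

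Probe sets of the same gene often disagreed. Of the 46 genes, 32 had more than 1 probe set, and the log2 fold changes had both signs in 19 of these, were all positive in 6 and all negative in 7. Differences this small readily take either sign. The share of all genes with both signs was not computed, so the count does not set these genes apart. Over all 127 probe sets of the 46 genes, 65 had the higher Aldrin-exposed mean (51.2%, against 48.2% of all probe sets) and 62 the lower. The 127 are not all distinct, since 2 probe sets of ACAD9 held equal values in every array and were counted separately. Those of ACADSB and ECHDC2 given above were the only 2 of the 127 under a limma p of 0.05 before adjustment, where 3.07% of all probe sets lay (1.22% higher and 1.85% lower), and 0 of the 127 were without overlap, against 1.99%.

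The spread within a group exceeded the difference between the groups in most of the genes. The median range within a group was 0.33 in Aldrin-exposed and 0.29 in Non-exposed arrays, beside a median difference of 0.07 between the groups. In 41 of the 46 the range of the Non-exposed arrays alone exceeded the difference. Where groups do not differ, a range within a group usually exceeds a difference of group means. The share of all genes was not computed, so the count does not set these genes apart. ACADS and ACAD8, chosen after their values were seen, had the widest Non-exposed ranges. ACADS read 8.63, 8.35, 7.89 and 8.53 in Aldrin-exposed and 8.81, 8.32, 8.94 and 7.96 in Non-exposed arrays. ACAD8 read 10.30, 9.92, 9.67 and 10.23 in Aldrin-exposed and 10.39, 9.94, 10.47 and 9.59 in Non-exposed arrays. In both genes Aldrin-exposed 3 and Non-exposed 4 were the low arrays.

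**Figure D3:**
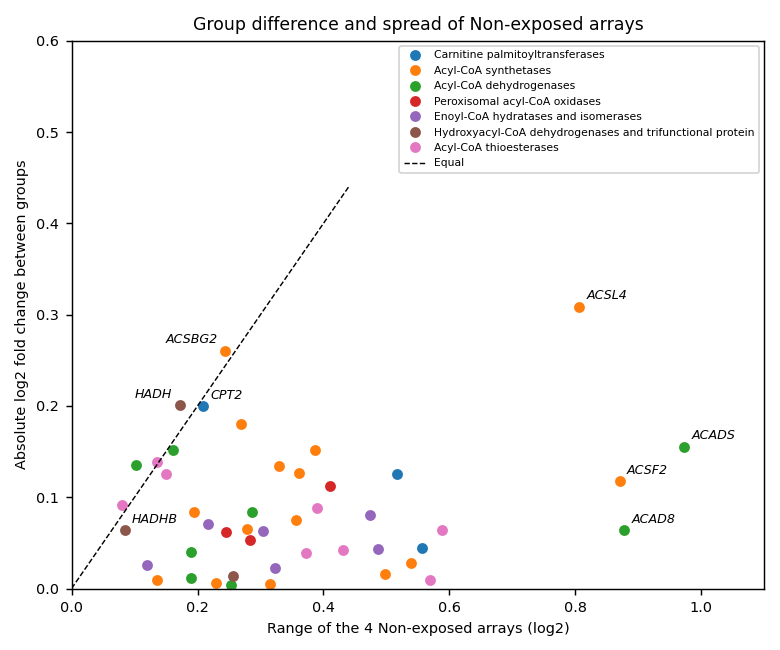
The absolute log2 fold change between the groups (vertical axis) against the range of the 4 Non-exposed arrays (horizontal axis, log2) for the 46 genes, coloured by enzyme class, with a dashed line where both are equal. In 41 of the 46 the point lies below the line, that is, the Non-exposed range exceeds the difference.

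Aldrin-exposed 3 and Non-exposed 4 departed from their own groups in the same direction. Each was the lowest array of its group for 21 of the 46 genes. They deviated from their group means with the same sign in 37 of the 46 (80.4%, against 76.6% of all genes), a pattern that the whole array also had. Of the 46, 15 were lowest in both arrays (32.6%, against 23.6% of all genes), among them ACADVL, ACAD9, ACADS, ACAD8, ACADL, ECI1, ECHDC1, ECHDC2, ECHDC3, ACOT7, ACOT8, ACOT9 and ACOT13. Another 5 were highest in both (10.9%, against 14.3%), namely ACSL4, ACSM3, HADHA, ACOT4 and ACOT6. The first principal component of the group-centred values held 58.8% of the variance of the 46 genes, with Aldrin-exposed 3 and Non-exposed 4 at one end.

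**Figure D4:**
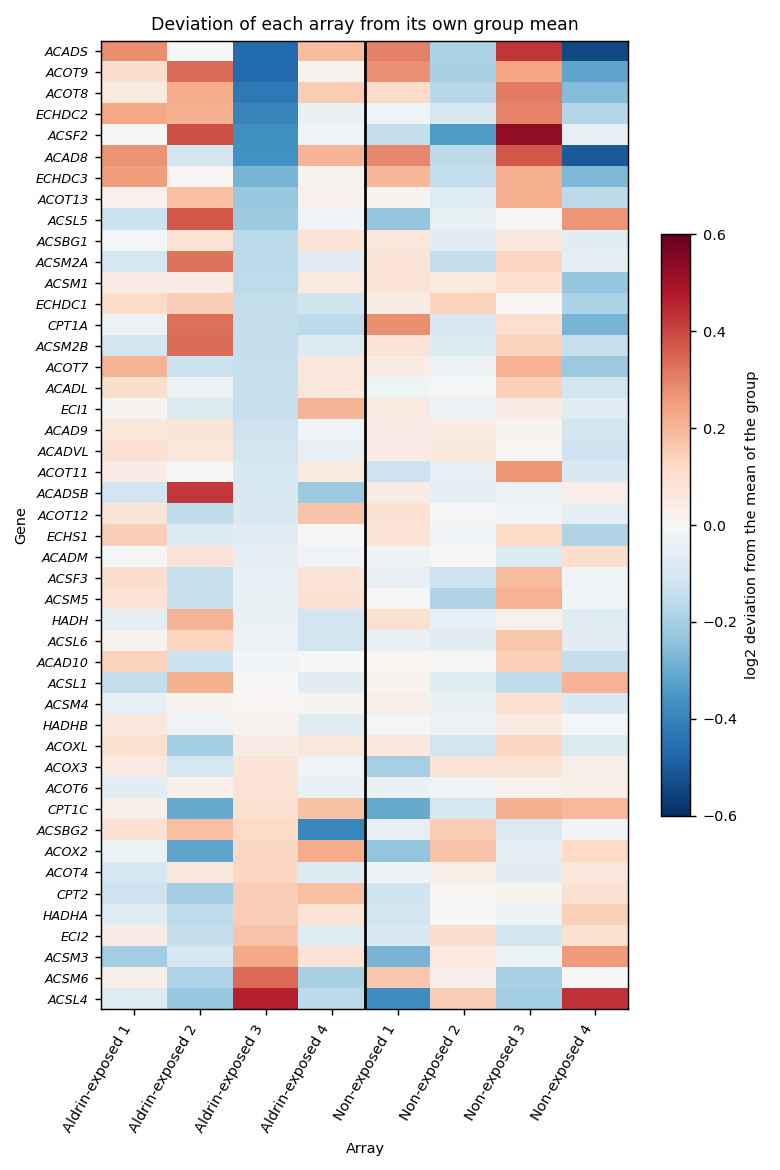
The deviation of each array (columns) from its own group mean for the 46 genes (rows, ordered by Aldrin-exposed 3), on a log2 colour scale in which blue is below and red above the mean. Aldrin-exposed 3 and Non-exposed 4 share their sign in 37 of the 46 genes.

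The control probe sets of the array gave values that differ between arrays. The difference between background controls of high and of low GC content was 6.13, 5.59, 5.65 and 6.14 in Aldrin-exposed and 6.17, 5.76, 6.37 and 5.90 in Non-exposed arrays. Aldrin-exposed 2 and 3 and Non-exposed 2 and 4 were the lower arrays of their groups. The 3′ minus 5′ signal of GAPDH, a measure of RNA integrity and labelling, was 0.56, 0.62, 0.65 and 0.41 in Aldrin-exposed and 0.40, 0.59, 0.39 and 0.59 in Non-exposed arrays. That of ACTB was 0.22, 0.45, 0.24 and 0.20 in Aldrin-exposed and 0.28, 0.16, 0.17 and 0.23 in Non-exposed arrays. ACTB ordered the arrays otherwise than GAPDH, with Aldrin-exposed 2 the highest and Non-exposed 2 the lowest. With the background difference as a covariate, the SD within groups was smaller in 29 of the 46 genes and in 58.1% of all genes. Its median in the 46 was 0.129, against 0.141 without the covariate. Over all genes the median was 0.136, against 0.157 without it. The part of these measures in the differences between arrays was not tested further.

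The rest of the fatty acid oxidation pathway was read from lists of carnitine carriers, uptake and binding proteins, thiolases and electron-transfer proteins, peroxisomal enzymes, malonyl-CoA enzymes, transcription factors, PPAR targets and ketone enzymes. Of 61 listed genes 57 were measured. At the chosen probe set of each, 0 passed the adjusted threshold and 0 lay under a limma p of 0.05 before adjustment. The Aldrin-exposed mean was the higher in 28 and the lower in 29, with a median log2 fold change of 0.00. Other probe sets lay under 0.05 before adjustment for PPARGC1B (smallest limma p 0.0115), CROT (0.0353), PPARA (0.0365) and ACSS1 (0.0409). These genes had 2, 4, 9 and 3 probe sets in turn. Of single probe sets over the whole array, 3.07% lay under that threshold. The share of all genes with any probe set under it was not computed, so these genes do not set the lists apart. Over all probe sets of each gene, log2 fold changes ran from -0.46 to -0.25 for PPARGC1B and from -0.14 to 0.34 for CROT. They ran from -0.16 to 0.47 for PPARA and from -0.05 to 0.25 for ACSS1. At the chosen probe sets, FABP4, the fatty acid-binding protein of fat cells, was the only 1 of the 57 without overlap. Of all genes, 1.75% were without overlap, including 1.22% with the lower Aldrin-exposed mean. FABP4 read 5.30, 5.36, 5.45 and 5.37 in Aldrin-exposed and 5.58, 5.47, 5.58 and 5.47 in Non-exposed arrays. Every Aldrin-exposed array was below every Non-exposed array at this low signal, and the log2 fold change was -0.16 (SE 0.07, limma p = 0.0568 before adjustment, exact permutation p = 0.0286). That permutation p is the smallest possible, which any gene without overlap gives.

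In the other lists the genes of smallest p overlapped between the groups at the chosen probe set. CRAT, the carnitine acetyltransferase, had a log2 fold change of 0.17, ETFA, which takes electrons from the acyl-CoA dehydrogenases, of 0.16, and PHYH, the first enzyme of phytanic acid alpha-oxidation, of 0.14. ACACA, which makes the malonyl-CoA that inhibits CPT1, was at 0.08 and ACSS2, the cytosolic acetate-activating enzyme, at 0.23. PPARGC1B, a coactivator of oxidative genes, was at -0.25, and at -0.46 at its other probe set. UCP3, a mitochondrial carrier and PPAR target, was at -0.14. At the chosen probe sets, the limma p-values of these genes before adjustment ran from 0.158 (PPARGC1B) to 0.540 (ACACA). SLC27A5, a bile acid-CoA ligase and fatty acid transporter that was chosen after its values were seen, read 9.81, 9.72, 9.11 and 9.43 in Aldrin-exposed and 9.08, 9.13, 9.54 and 8.81 in Non-exposed arrays, a log2 fold change of 0.37 (limma p = 0.0761 before adjustment, exact permutation p = 0.171).

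Across the series, array medians lay between 8.05 and 8.10 and correlations between arrays between 0.983 and 0.997. The epithelial markers EPCAM, CDH1, KRT8, KRT18 and KRT19 averaged 9.53 to 12.97 over the 8 arrays, with a summed log2 level of 57.5 to 58.1 in Aldrin-exposed and 58.5 to 59.3 in Non-exposed arrays. Of these 5, CDH1 alone lay under a limma p of 0.05 before adjustment, and the part of this in the enzyme values was not tested. The 4 prostate luminal markers measured, KLK3, KLK2, TMPRSS2 and ACP3, averaged 4.77 to 6.28, near the low end of the array. Marker lists of blood cells (4.76 to 7.002), fibroblasts (4.18 to 8.64) and endothelium (5.12 to 7.75) had 0 genes under a limma p of 0.05 before adjustment.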

How the data were processed

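Total RNA of DU145 cells was labelled with biotin and hybridised by the authors to 8 1-colour Affymetrix arrays. The deposited table holds log2 values that the authors normalised by RMA, a background correction, quantile normalisation and probe summary (version not given in the sources used here); it was used as deposited, with no further normalisation. RMA makes arrays alike in distribution and so removes any shift common to all genes.

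The table has 49395 probe sets, of which 49293 were tested and 102, the controls, were not. GEO's platform annotation gave 1 gene to 44988, several to 1832 and none to 2473. Each gene was read at its single-gene probe set of highest mean. Levels of different probe sets were not compared, and no coverage or count exists for arrays, so 4 arrays a group set the precision. Because background signal rises with GC content, no single detection limit was set, and 5.5 marks only the lowest signals. Background controls averaged 6.13 at a GC count of 16 and 8.35 at 20. A level above 5.5 therefore does not by itself show signal above background. This holds for ACSBG2, ACSM5, CPT1C, ACOX2 and ACOXL, with means of 6.90 to 7.31 over the 8 arrays. The GC content of their probes was not compared.

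limma 3.58.1 in R 4.3.3 (lmFit, eBayes) compared Aldrin-exposed with Non-exposed arrays, with Benjamini-Hochberg adjustment over all probe sets and a threshold of 0.05. The script was tested on simulated data. Single genes were also given an exact permutation test (two-sided). By a rule, the genes named were the 2 with the smallest limma p in each of 7 enzyme classes, all CPT genes, any under the unadjusted threshold or without overlap, and the 1 of smallest p in each of the pathway lists. The genes and lists were chosen with earlier results of these data known. Alternatives were an unequal-variance test, a trended robust variance, array weights, the replicate block, median centring, further quantile normalisation, leaving out dim probe sets, the mean of all probe sets of a gene, a background covariate and leaving out each array. Promoters were read from RefSeq (GRCh38.p14) with Python 3.11.15.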

Additional observations from a re-analysis of the deposited data

Results flagged for a closer look

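In 8 of the 92 groups of 4 arrays formed by the 46 genes, an array stood apart from the other 3 of its group (Dixon's test; chance flags about 1 in 20 groups). Of the synthetases, ACSBG2 was at 6.475 in Aldrin-exposed 4 with the others at 6.96 to 7.05. ACSM1, a medium-chain synthetase, was at 5.645 in Aldrin-exposed 3 with the others at 5.84 to 5.85, and at 5.698 in Non-exposed 4 with the others at 5.99 to 6.03. ACSM4 was at 4.293 in Aldrin-exposed 1 beside 4.35 to 4.36, and ACSM2B at 4.921 in Aldrin-exposed 2 beside 4.45 to 4.50. ACSL6 was at 4.766 in Non-exposed 3 beside 4.54 to 4.55. Of the oxidases, ACOXL was at 6.844 in Aldrin-exposed 2 with the others at 7.09 to 7.14, and ACOX3 at 9.874 in Non-exposed 1 with the others at 10.11 to 10.16.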

How the results depend on the processing

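The count of the 46 genes past the adjusted threshold was 0 under all alternatives run. Under the unadjusted threshold of 0.05 there were 0 of the 46 as reported. There was 1 with the lower Aldrin-exposed mean under the unequal-variance test (ACAD9, 2.17% of the 46 against 2.56% of all genes). Array weights and the background covariate each gave 1 lower (ACSBG2, 2.17% against 4.58% and 2.76%). Median centring gave 1 higher (HADH, 2.17% against 2.80%). The mean of probe sets gave 2 higher (ACSL4 and HADH, 4.35% against 3.46%). Leaving out each array gave 0 to 1 higher and 0 to 1 lower. CPT2 and ACSBG2 were under the threshold without Aldrin-exposed 2 (4.35% against 2.76%) and HADH without Aldrin-exposed 4 (2.17% against 3.40%). HADH was also under it without Non-exposed 1 (2.17% against 2.05%), and ACSL4 and ACSM1 without Non-exposed 4 (4.35% against 5.01%). Genes without overlap, 0 as reported, were 1 for the mean of probe sets (HADH, 2.17% against 2.25% of all genes). When an array was left out there was 1 (2.17%, against 2.97% to 4.53% of all genes), except without Non-exposed 4. There it was 3 (ACSM1, ACSM4 and ACAD9, 6.52% against 5.98%). The median log2 fold change stayed between -0.04 and 0.03. The count with the higher Aldrin-exposed mean, 22 as reported, ran from 17 to 29. Class medians took both signs, from -0.09 to 0.03 for the dehydrogenases and from -0.08 to 0.09 for the thioesterases. Only the carnitine palmitoyltransferases kept 1 sign (0.05 to 0.23). Signs reversed for ACOXL, to 0.0128 with array weights, 0.0015 with the background covariate and 0.0056 without Aldrin-exposed 2 (range over left-out arrays -0.10 to 0.0056); for HADHB, to 0.0903 with the mean of probe sets; for ACADSB, to -0.0061 without Aldrin-exposed 2 (range -0.0061 to 0.21); and for CPT1A, to 0.0023, 0.0074 and 0.048 without Aldrin-exposed 3, Aldrin-exposed 4 and Non-exposed 1 (range -0.16 to 0.048). The cause was not tested. Deviations of same-numbered replicates from their group means correlated at 0.31, -0.34, -0.72 and -0.08. These deviations include the array-wide pattern of Aldrin-exposed 3 and Non-exposed 4, so they cannot decide whether samples were paired. With the replicate block, 0 of the 46 and 1.64% of all genes lay under the unadjusted threshold, against 0 and 2.76% without it. Of all probe sets, 912 lay under it with the block and 1515 without.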
